A study of Mus musculus with 6 samples.

Results

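Macrophages and monocytes were compared within single hashed samples of CD11b+ brain cells, with both classes of a comparison taken from the same sample and library. The cells were chosen by their own RNA counts. A macrophage held at least 3 unique molecular identifiers (UMIs, counts of distinct RNA molecules) of Ms4a7 and Gpnmb together and at most 1 of Ly6c2 and Plac8 together. A monocyte held at least 5 UMIs of Ly6c2 and Plac8 and at most 1 of Ms4a7 and Gpnmb. Cells with more than 1 UMI of the microglial genes P2ry12, Tmem119, Siglech and Gpr34, or of the lymphoid and dendritic genes Nkg7, Flt3 and Ccr7, had been set aside first. Of 36755 deposited cell barcodes, 746 were macrophages and 2931 were monocytes by these gates, and 713 and 2158 of them lay in the 8 hashed samples that held at least 20 cells of each class.

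The study measured RNA together with antibody tags (CITE-seq, droplet-based 3' sequencing of single cells) in CD11b+ cells of C57BL/6 mice aged 12 weeks, from perfused and enzymatically dissociated brains. Each of 3 pools combined 6 samples marked with hashtag antibodies, and those were a female and a male control, a female and a male tumor at day 14 and a female and a male tumor at day 21 after implantation. Whole brains were used for controls and tumor-bearing hemispheres for the others. The labels used here do not say which hashtag marked which sample, so sex, tumor and day are unknown for every hashed sample, and each is named by its pool and hashtag number. The labels do not tell how many animals made up a sample, so p-values measure the spread between these samples, which may be partly technical.

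Ly6C-high monocytes leave the blood through the chemokine receptor CCR2 and can mature into macrophages in inflamed or tumor-bearing tissue. As they mature they lose genes of circulation and adhesion and gain genes for engulfing cells, for breaking down lipid and protein in lysosomes and for complement. Ms4a7 encodes a membrane protein found in brain macrophages other than microglia, Gpnmb a lysosomal glycoprotein, Ly6c2 the Ly6C surface antigen and Plac8 a small cysteine-rich protein of monocytes.

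The pools held 11010 to 13925 barcodes and 71510276 to 107880924 RNA UMIs, with a median of 4451 to 8129 UMIs per barcode. Between 32 and 53 barcodes were shared by each pair of pools, at most 0.481% of the smaller one. A single hashtag held at least 80% of the hashtag UMIs in 22157 of 36214 cells that passed the RNA filters, but in only 1896 of 11760 cells of pool 3, so pool 3 enters with few cells. Hashtags 1 and 2 marked 5072 of these cells, of which 15 passed the macrophage gate and 23 the monocyte gate, and they were not part of the comparison.

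By these gates, macrophages were far fewer than monocytes in most samples. Both gates leave out cells that carried both pairs of genes, so the balance depends on the cuts. In pool 1, hashtags 3 to 6 held 11, 109, 21 and 168 macrophages beside 500, 412, 549 and 313 monocytes. In pool 2 the same hashtag numbers held 14, 176, 42 and 151 macrophages beside 223, 172, 368 and 207 monocytes. In pool 3 they held 7, 1, 21 and 25 macrophages beside 12, 38, 47 and 90 monocytes. Pool 2, hashtag 4 was the only sample in which gated macrophages outnumbered gated monocytes. All cells with at least 3 UMIs of Ms4a7 and Gpnmb, whatever their monocyte genes, numbered 609 there beside 172 gated monocytes. In pool 1, hashtag 3 such cells numbered 186 beside 500. The 4 samples with fewer than 20 cells of a class, hashtag 3 of every pool and hashtag 4 of pool 3, left 33 macrophages and 773 monocytes outside the test.

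**Figure D1:**
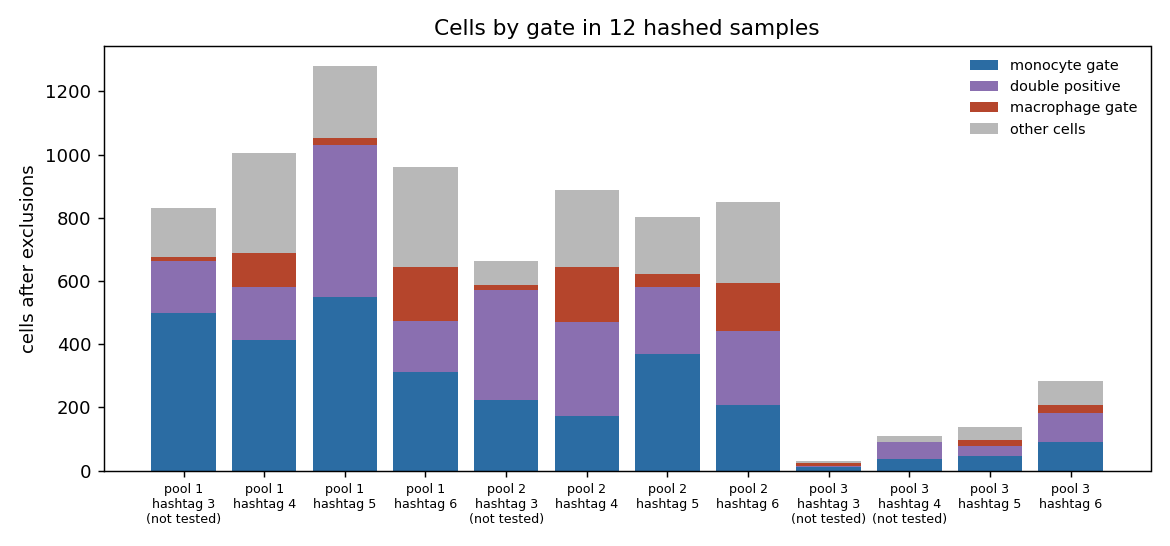
Cells of each gate (stacked bars, number of cells after the exclusions) in the 12 hashed samples under hashtags 3 to 6. The monocyte and double positive parts exceed the macrophage part in most samples, and pool 3 contributes the fewest cells, 25 macrophages at most.

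A further 2254 cells under hashtags 3 to 6 passed both gates at once (at least 3 UMIs of the macrophage genes and at least 5 of the monocyte genes), and 1911 passed neither pattern. The gates cut a range of counts, and whether the 2 classes are separate populations was not tested; doublets of cells from the same sample were not removed. Among all cells with at least 3 UMIs of Ms4a7 and Gpnmb, the share that also held at least 5 UMIs of Ly6c2 and Plac8 ran from 36.4% of 11 cells in pool 3, hashtag 3 and 37.6% of 431 in pool 1, hashtag 6 to 93.8% of 373 in pool 2, hashtag 3. Just inside the macrophage cut, 58 cells with a sum of 3 had 5704 C1qa and 0 Vcan CPM (UMIs of a gene per 1000000 UMIs), and just outside it 77 cells with a sum of 2 had 4990 C1qa and 0 Vcan. At the monocyte cut, 43 cells with a sum of 5 had 2102 C1qa and 13.7 Vcan, and 59 cells with a sum of 4 had 2564 C1qa and 0 Vcan. Gated macrophages held more UMIs, with a median of 10450.5 per cell over the 8 samples (range 6189 to 18269) against 7523.5 in monocytes (6129 to 9921), and their median mitochondrial share was 1.28% against 1.31%. The gates are cuts on UMI counts and can themselves select deeper cells. Median UMIs were 3868 at a macrophage sum of 2 and 6263 at 3, but 4512 at a monocyte sum of 4 and 4163 at 5. How much of the difference the gates set was not tested.

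The gate genes separated by construction. Ms4a7 had a level of 543 to 1333 CPM (of a class sum, with its total of UMIs scaled by the TMM factor) in macrophages and 14.2 to 37.5 in monocytes, and Gpnmb 154 to 678 and 0 to 7. Ly6c2 stood at 16.7 to 36.9 CPM in macrophages and 1290 to 3701 in monocytes, and Plac8 at 7.15 to 23.6 and 3571 to 6727. These values chose the cells and carry no test. Gates on 1 gene of each pair were also tried. They asked for at least 2 UMIs of the macrophage gene or 3 of the monocyte gene, and 0 of the other. Their levels are CPM of plain totals. Each had 8 samples, but not the 8 of the test. Both lacked pool 3, hashtag 5, and held pool 1, hashtag 3 (Ms4a7 and Ly6c2) or pool 2, hashtag 3 (Gpnmb and Plac8) instead. When the gates used Ms4a7 and Ly6c2 alone, the unused gene Gpnmb was higher in macrophages in 8 of 8 samples, with a median of 178 CPM against 14.7. Plac8 was lower in 8 of 8, with 153 against 4733. When they used Gpnmb and Plac8 alone, Ms4a7 had a median of 1064 CPM in macrophages and 294 in monocytes, and Ly6c2 491 and 1654, again in the same direction in 8 of 8 samples. Each gene of a pair therefore followed the other in cells that it had not selected. The levels lay closer together than under the combined gates, whose cuts, scaling and samples differ.

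Over the whole transcriptome, 3383 of 7692 genes tested differed between macrophages and monocytes of the same sample (edgeR quasi-likelihood test with the hashed sample as block, Benjamini-Hochberg adjusted p under 0.05), which is 44% of them. Macrophages were higher for 1664 genes (21.6%) and lower for 1719 (22.3%). Both shares are the background for the counts of every gene list below. The ranges of the 2 classes over the 8 samples did not overlap for 632 genes (8.22%). Changes of at least 2-fold were found for 301 higher and 481 lower genes, and changes of at least 8-fold for 6 higher and 33 lower genes. The median log2 fold change of all genes tested, macrophages over monocytes, was 0.02. The 11 genes of the gates and exclusions were left out of these counts. Because the test compares sums of counts, more RNA of a gene per cell and more cells that hold it cannot be told apart.

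The genes with the greatest rise in macrophages, among well expressed genes that moved the same way in every sample, were led by Pf4, Syngr1 and Cd63. Pf4 encodes platelet factor 4, a chemokine also made by macrophages at the borders of the brain. Its level in macrophages was 211, 591 and 153 CPM in pool 1 (hashtags 4, 5 and 6), 117, 113 and 250 in pool 2, and 313 and 41.5 in pool 3 (hashtags 5 and 6), while no monocyte sum exceeded 8.73 CPM. The groups did not overlap, and the log2 fold change was 6.05 ± 0.31 (SE, adjusted p = 1.8e-13). Syngr1, which encodes a vesicle protein, stood at 97.5 to 176 CPM (median 145) against 5.94 to 12.6 (median 8.02), a log2 fold change of 4.07 ± 0.12 (adjusted p = 8.3e-18). This was a narrower spread than that of Pf4, and again no sample of one class reached the other.

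Cd63, a tetraspanin of late endosomes and lysosomes, had 406 to 890 CPM in macrophages (median 734) and 54.0 to 105 in monocytes (median 83.0), with a log2 fold change of 3.12 ± 0.10 (adjusted p = 5.9e-17). Cd81, another tetraspanin, rose by 2.29 ± 0.14, from a median of 35 to 141 CPM. Timp2, an inhibitor of matrix metalloproteases, rose by 2.60 ± 0.10, from 31.7 to 199 CPM. Fabp5, a carrier of fatty acids, rose by 2.60 ± 0.23, from 306 to 1706 CPM. Olfml3, which encodes a secreted olfactomedin-like protein found in microglia, rose by 2.18 ± 0.16, from 18.5 to 99.9 CPM, and its ranges met at the edges (31.5 to 146 against 6.00 to 37.4).

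Among the 11 genes shown with the greatest fall in macrophages, Ifitm6, S100a4, Chil3 and Hp belong to the monocyte list and Isg20 to the interferon list. S100a4, a calcium-binding protein, stood at 17.0, 15.8 and 10.8 CPM in macrophages of pool 1, at 9.56, 25 and 11.2 in pool 2 and at 28.4 and 3.77 in pool 3. Every monocyte sum lay between 490 and 1064 CPM, and the log2 fold change was -5.95 ± 0.15 (adjusted p = 1.8e-19). Ifitm6, an interferon-induced membrane protein, had a median of 1.42 CPM in macrophages and 229 in monocytes (log2 fold change -6.40 ± 0.23). Hp, which encodes haptoglobin, had 11.4 and 280 CPM (-3.97 ± 0.16).

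Chil3, a chitinase-like protein of monocytes and of some activated macrophages, ranged from 76.7 to 949 CPM in monocytes and from 0 to 142 in macrophages. It was lower in macrophages in each of the 8 samples (log2 fold change -4.59 ± 0.28, adjusted p = 4.6e-12), but the ranges overlapped, because the macrophages of pool 1, hashtag 5 carried 142 CPM and all others at most 10.4. Lsp1 and Mcemp1, genes of leukocytes and mast or myeloid cells, fell by 3.23 ± 0.15 and 3.18 ± 0.14 on the log2 scale. Traf1, an adaptor of tumor necrosis factor receptors, fell by 3.07 ± 0.17, and Ifi205, an interferon-inducible gene, fell by 3.02 ± 0.14. Il1r2, the decoy receptor of interleukin-1, fell by 2.97 ± 0.23, and Klrk1, which encodes the receptor NKG2D, fell by 2.97 ± 0.14.

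**Figure D2:**
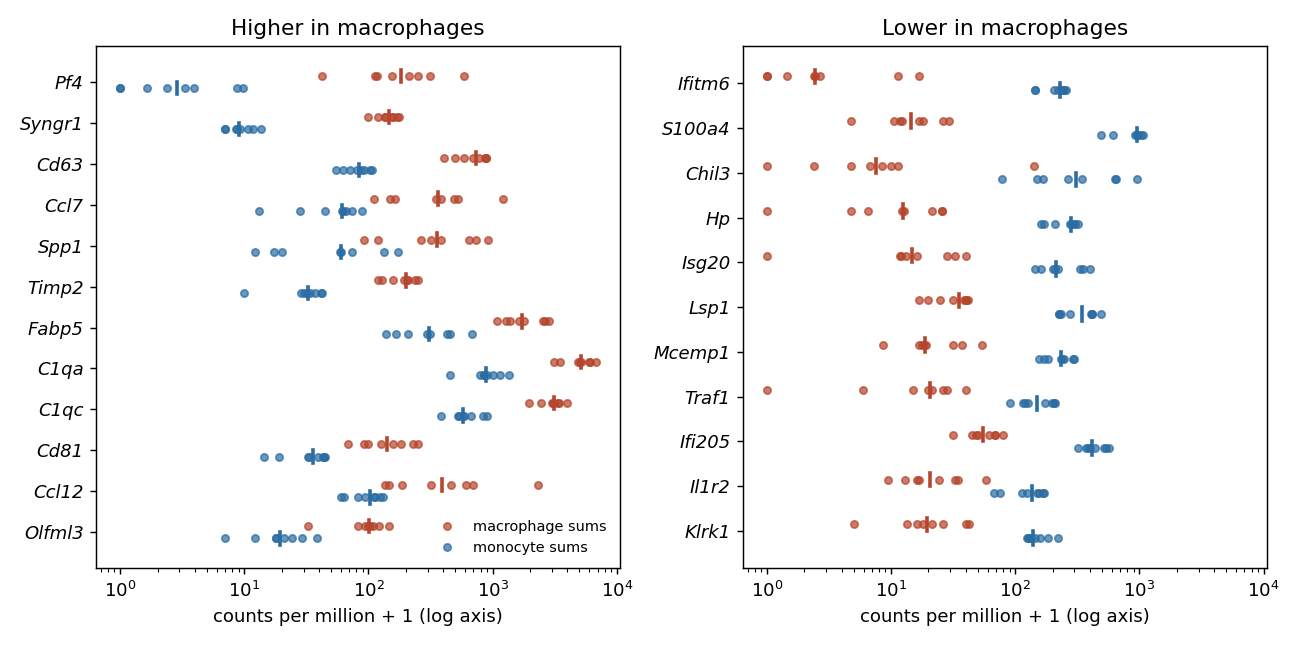
CPM plus 1 (log axis) of the 12 genes with the greatest rise (left) and 11 genes with the greatest fall (right) in macrophages; each point is 1 of 8 class sums and the vertical bars are medians. Macrophage and monocyte points of S100a4, Syngr1 and Pf4 lie apart, while those of Spp1 and Chil3 overlap.

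Monocyte genes as a list followed the gates. Of 17 monocyte genes outside the gates, 14 fell in macrophages, 1 rose (F13a1, coagulation factor XIII subunit A, log2 fold change 0.40, adjusted p = 0.049) and 2 did not pass (Fn1 and Lyz2), with a list median of -2.19. Vcan, which encodes the matrix proteoglycan versican, had at most 2.24 CPM in macrophages and 16.2 to 43.4 in monocytes. Ccr2, the receptor that draws monocytes into tissue, had 7.88 to 106 CPM in macrophages (median 56.5) and 426 to 771 in monocytes (median 484), a log2 fold change of -2.80 ± 0.16 (adjusted p = 7.5e-13). The difference in Ccr2 was -2.97 in pool 1, -2.50 in pool 2 and -3.42 in pool 3.

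Lipid and lysosome genes were mostly higher in macrophages. In the lipid list 10 of 14 tested members rose and 1 fell (Npc2), with a median log2 fold change of 0.95. Apoe, which encodes a lipid carrier and was among the most abundant transcripts, had 5604 to 21317 CPM in macrophages (median 18282) and 2687 to 5728 in monocytes (median 4299). Macrophages were higher in 8 of 8 samples (log2 fold change 1.89 ± 0.11, adjusted p = 1.9e-12), and the lowest macrophage sum, in pool 3, hashtag 6, fell just below the highest monocyte sum. Trem2, a lipid-sensing receptor, had 433 to 671 CPM against 102 to 173, with no overlap (2.09 ± 0.10). Spp1, which encodes osteopontin, had a median of 353 CPM against 58.7 (2.67 ± 0.16). Abca1, the cholesterol exporter, rose by 1.89.

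Of 21 lysosomal genes, 16 rose and 1 fell (Lamp2), with a median of 0.74. Ctsd, the aspartic protease cathepsin D, had 843 to 1785 CPM in macrophages and 273 to 454 in monocytes (log2 fold change 1.81 ± 0.09, adjusted p = 2e-13). Lgmn, the protease legumain, had 1040 to 2062 CPM against 368 to 580 (1.63 ± 0.09). Neither gene overlapped between the classes. Genes of heme and iron handling formed a smaller group of the same direction, in which 9 of 10 members rose, 0 fell and Tfrc did not pass, with a median of 0.64. Hpgds, a prostaglandin D synthase that binds heme, rose by 2.33 ± 0.15, Blvrb, a biliverdin reductase, by 0.98 ± 0.09 and Ftl1, the ferritin light chain, by 0.70 ± 0.07.

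Complement genes rose through the C1q complex and the receptors of complement fragments. The list held 7 higher and 1 lower gene of 12 (median 1.05). C1qa had 6112, 4855 and 6833 CPM in macrophages of pool 1, 5970, 5077 and 5167 in pool 2 and 3506 and 3121 in pool 3. The corresponding monocyte sums were 791, 855 and 893, then 1154, 858 and 1005, then 453 and 1351. Macrophages exceeded monocytes in every sample, by 2.48 ± 0.13 on the log2 scale (adjusted p = 5.1e-13), and least in pool 3, hashtag 6. C1qb and C1qc, the other chains of the complex, rose by 2.03 ± 0.12 and 2.30 ± 0.13, C3ar1, the receptor of the C3a fragment, by 1.63 and C5ar1, the receptor of C5a, by 1.12. Cfb, factor B of the alternative pathway, fell by 0.83.

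All 22 tested interferon response genes were lower in macrophages, with a median of -1.64; Mx1 of the list was not tested. Isg15, a ubiquitin-like modifier induced by interferon, had 571, 891 and 682 CPM in macrophages of pool 1, 236, 608 and 230 in pool 2 and 232 and 298 in pool 3. In monocytes it had 3548, 4006 and 3719, then 1446, 1874 and 1600, then 1354 and 1447 CPM. Pool 1 was the highest for both classes, yet the difference between classes was alike in the pools at -2.45, -2.37 and -2.32, and -2.39 ± 0.11 in all (adjusted p = 1.2e-14). Ifitm3, a membrane protein that restricts viral entry, had 1112 to 3046 CPM against 5435 to 10510 (-1.86 ± 0.08). Isg20, an exonuclease, changed by -3.77 ± 0.14 and Irf7, a transcription factor of the interferon response, by -1.62 ± 0.09. The smallest change in the list was that of Bst2 (-0.23), which encodes tetherin.

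Because the interferon genes moved together, their promoters were searched for the core of the interferon-stimulated response element, GAAA, any pair of bases, then GAAA, on both strands and with overlapping matches kept. Windows came from RefSeq (GRCm38.p6) and ran from 250 bases before to 50 after each gene's start. The core was found in 9 of 17 interferon list members with a window (52.9%), in 8.51% of genes lower in macrophages, in 3.53% of genes higher in macrophages, in 4.54% of genes tested and in 3.99% of 27025 genes of the table. A match describes letters only. The site nearest to the start of each of these genes follows in the direction of the gene, with the core in capitals (TTTC marks it on the opposite strand).
Ifit1: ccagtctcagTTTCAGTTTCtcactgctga
Ifit3: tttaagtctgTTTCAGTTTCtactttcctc
Isg15: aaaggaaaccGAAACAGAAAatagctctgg
Rsad2: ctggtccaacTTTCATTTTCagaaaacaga
Oas1a: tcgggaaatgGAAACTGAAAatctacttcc
Stat2: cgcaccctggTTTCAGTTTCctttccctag
Ifitm3: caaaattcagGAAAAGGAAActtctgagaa
Gbp2: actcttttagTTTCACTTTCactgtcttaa
Bst2: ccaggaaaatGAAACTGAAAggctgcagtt
Counted from the gene's start, 7 of the 9 cores began between -124 and -14, that of Stat2 at -222 and that of Ifitm3 at 3. In the 250 bases upstream of Isg15 (chr4:156200819-156201068, minus strand) 3 overlapping cores formed 1 run.
Isg15 upstream: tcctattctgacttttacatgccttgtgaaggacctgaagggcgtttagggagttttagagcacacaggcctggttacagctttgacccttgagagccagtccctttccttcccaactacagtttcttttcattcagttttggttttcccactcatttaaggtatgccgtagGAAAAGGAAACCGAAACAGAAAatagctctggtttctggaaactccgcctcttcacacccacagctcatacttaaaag

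The lysosomal list was searched in the same way for CACGTGAC, an E-box that transcription factors of the MiT/TFE family bind. It stood in the windows of 4 of 18 members (22.2%), Ctsa, Ctsd, Lgmn and Lamp1, against 6.7% of genes higher in macrophages, 4.8% of genes lower in macrophages, 5.86% of genes tested and 2.55% of all genes. The 250 bases upstream of Ctsd (chr7:142387828-142388077, minus strand) held it in 2 places, shown in capitals.
Ctsd upstream: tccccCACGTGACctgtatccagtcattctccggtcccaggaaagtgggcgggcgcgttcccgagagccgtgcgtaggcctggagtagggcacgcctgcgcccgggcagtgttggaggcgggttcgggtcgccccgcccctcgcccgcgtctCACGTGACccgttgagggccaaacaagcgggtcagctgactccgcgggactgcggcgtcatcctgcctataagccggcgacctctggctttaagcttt
The letters TGCTGA, part of the Maf recognition element, were in 17.2% of higher, 19.1% of lower, 17% of tested and 21.7% of all genes.

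Antigen presentation genes were lower or did not pass. Of 15 MHC class I genes 11 fell and 0 rose (median -0.52), among them Psmb9, an immunoproteasome subunit (-0.94 ± 0.08), and Tap1, a peptide transporter (-0.84 ± 0.09). B2m, H2-K1, H2-Q6 and H2-Q7 did not pass. H2 genes resemble one another, so reads may be split among them. Of 10 MHC class II genes, 6 fell and none passed as higher (median -0.47). The 6 were H2-DMa, H2-DMb1, H2-DMb2, H2-Oa and H2-Ob, which load or edit peptides, and Ciita, the master activator of the class. H2-Oa had a median of 11.7 CPM in macrophages and 72.6 in monocytes (-2.88 ± 0.21, adjusted p = 8.7e-11), and Ciita 58.4 and 132 (-1.16 ± 0.12). The chains that present peptide did not pass: H2-Ab1 had 9081 and 8305 CPM (0.11 ± 0.08, adjusted p = 0.31), H2-Aa 5990 and 7052 (-0.16 ± 0.07, adjusted p = 0.081, but lower past the test in several other settings, such as -0.27 with adjusted p = 0.0136 in cells matched on UMIs), and the invariant chain Cd74 16634 and 18913 (-0.08 ± 0.07, adjusted p = 0.38). Their direction changed with the gates. With gates on Gpnmb and Plac8 only, where 1751 genes were lower in all, all 10 genes of the list fell. H2-Ab1 changed there by -0.57 (edgeR, adjusted p = 1.1e-05), whereas with gates on Ms4a7 and Ly6c2 only H2-Ab1 was higher by 0.38 (edgeR, adjusted p = 0.000708). The cuts and part of the samples of these gates also differ from those of the main fit. H2-Ab1 was also higher past the test with library size scaling (0.19, adjusted p = 0.0431) and without replicate 2 (0.30, adjusted p = 0.0169).

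**Figure D3:**
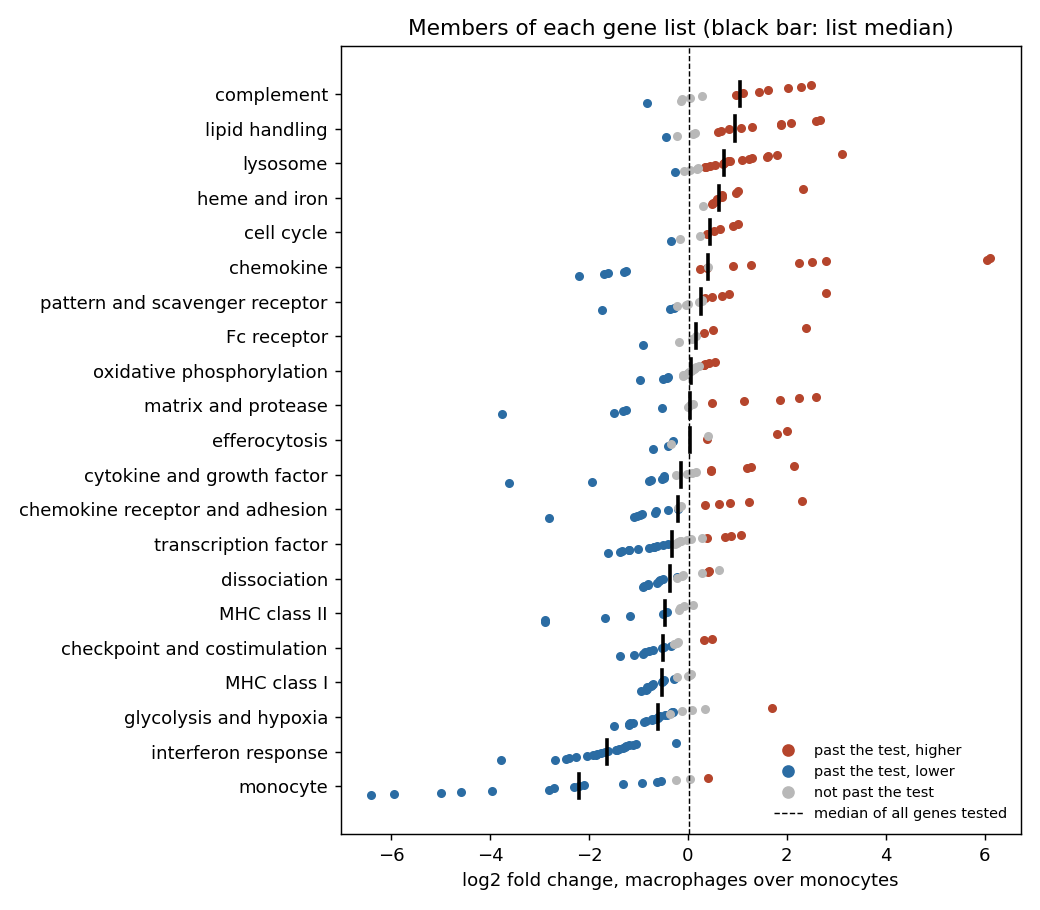
Log2 fold change, macrophages over monocytes, of each tested member of 21 gene lists (points coloured by the outcome of the test, black bars for list medians, dashed line for the median of all genes). Complement, lipid and lysosome lists lie to the right, and interferon and monocyte lists to the left with medians of -1.64 and -2.19.

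Chemokines moved in both directions. Of 15 tested, 9 rose (Ccl3, Ccl4, Ccl7, Ccl8, Ccl12, Ccl24, Cxcl2, Cxcl16 and Pf4) and 5 fell (Ccl5, Ccl6, Ccl9, Cxcl9 and Cxcl10), with a median of 0.40. Ccl7 and Ccl12, which attract monocytes through CCR2, rose by 2.80 ± 0.19 and 2.24 ± 0.27, but with gates on Gpnmb and Plac8 Ccl12 changed by -0.12 (adjusted p = 0.578). Ccl8 varied most: its macrophage sums had 52.2, 827 and 454 CPM in pool 1, 106, 11.1 and 506 in pool 2 and 4.06 and 1319 in pool 3, against at most 23.9 in any monocyte sum. The log2 fold change was 6.10 ± 0.27 (adjusted p = 1.2e-14), but in pool 3, hashtag 5 the macrophages, at 4.06 CPM, were below the monocytes at 9.01, and the ranges overlapped. Cxcl9 and Cxcl10, ligands of CXCR3 induced by interferon, fell by 1.29 and 1.61.

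Other secreted factors were mixed, beside 21.6% higher and 22.3% lower among all genes tested. Of 16 cytokines and growth factors 5 rose (Il1a, Il18bp, Tnf, Pdgfa and Pdgfb) and 7 fell (Il1b, Il1rn, Il6, Il18, Tnfsf9, Tgfb1 and Osm), with a median of -0.13. Il18 fell by 1.94 ± 0.13, with ranges of 12.2 to 27.5 CPM in macrophages and 60.02 to 142 in monocytes that did not overlap. Il1a rose by 1.20 ± 0.13 in 8 of 8 samples. Pdgfa, a platelet-derived growth factor, rose by 2.15 ± 0.20, in 7 of 8 samples. Of 13 matrix and protease genes 5 rose and 5 fell (median 0.05): Plau, the urokinase protease, rose by 2.24, Mmp12, macrophage elastase, by 1.85, while Timp1, an inhibitor of metalloproteases, changed by -3.76 ± 0.27 and Thbs1, which encodes thrombospondin, by -1.32 ± 0.15. Timp1 and its relative Timp2 thus moved in opposite directions.

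Receptors of adhesion and migration also divided. For each list of this paragraph, the shares among all genes tested are 21.6% higher and 22.3% lower. Of 17, 5 rose (Cx3cr1, Itgb1, Itgav, Itgb5 and Itga6) and 9 fell (median -0.21). Selplg, which encodes a glycoprotein ligand of selectins, had 71.5 to 136 CPM in macrophages and 177 to 348 in monocytes (log2 fold change -1.10 ± 0.10). Itga4, a subunit of the VLA-4 integrin, had 53.5 to 83.5 CPM in macrophages and 125 to 179 in monocytes (-1.03 ± 0.10), whereas Itgb5, a subunit of a vitronectin-binding integrin, rose by 1.24 ± 0.09. Genes for the uptake of dying cells had 3 higher (the receptors Mertk, Axl and Stab1) and 3 lower members (Cd300lf, Elmo1 and Havcr2) of 8 (median 0.04), with Stab1 at 2.01 ± 0.14 and Mertk at 1.80 ± 0.14. Of 14 pattern and scavenger receptors 5 rose and 3 fell (median 0.26), the lower ones near the share among all genes. Mrc1, the mannose receptor, rose by 2.79 ± 0.24 with 276 CPM in macrophages of pool 1, hashtag 5 and at most 126 elsewhere, and Clec4e, the receptor Mincle, changed by -1.73 ± 0.17. Of 7 Fc receptor genes 3 rose and 1 fell (median 0.17): Fcrls rose by 2.39 ± 0.21 and Fcgr2b, the inhibitory receptor, by 0.51 ± 0.09, and Fcgr1, the high-affinity receptor, changed by -0.90 ± 0.10.

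Glycolysis and hypoxia genes were mostly lower in macrophages, 18 of 23, with 1 higher and a median of -0.60. Hif1a, the hypoxia-inducible factor, had 110 to 219 CPM in macrophages and 272 to 481 in monocytes (-1.19 ± 0.08, adjusted p = 2.9e-11). Pfkp, a phosphofructokinase, and Slc16a3, a lactate exporter, changed by -1.50 ± 0.11 and -1.19 ± 0.12. The higher gene was Arg1, arginase 1, which rose by 1.70 from a median of 148 to 516 CPM. Of 22 genes of oxidative phosphorylation 5 rose, 4 fell and 13 did not pass (median 0.07), shares near those of all genes tested (21.6% higher, 22.3% lower). No member of that list rose in cells matched on UMIs, a setting with 7 samples and fewer cells. There 746 genes rose in all, against 1664 in the main fit. Whether depth or the loss of cells set this was not tested.

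Among 24 transcription factors 4 rose (Cebpa, Maf, Nr1h3 and Mitf) and 12 fell (median -0.33). Nr1h3, the oxysterol receptor LXR alpha, rose by 1.07. Cebpb, a factor of inflammatory myeloid cells, changed by -1.01 ± 0.09, Klf2 by -1.33 and Batf3 by -1.38. Of 14 checkpoint and costimulatory genes 9 fell and 2 rose (Vsir and Sirpa), with a median of -0.50. Cd47, the signal that restrains engulfment, changed by -1.38 ± 0.09 and its receptor Sirpa rose by 0.49 ± 0.08, and Cd40, a costimulatory receptor, changed by -1.08 ± 0.13.

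Cell cycle genes gave a weak signal. Of 8 tested, 5 rose and 1 fell (median 0.46), Mcm3 by 1.02 ± 0.22 and Mcm6, both parts of the replicative helicase, by 0.92 ± 0.28, while Mki67 did not pass (-0.15). In cells matched on UMIs (7 samples, fewer cells, 746 genes higher in all) none of the list rose. With DESeq2 (1403 genes higher in all) 3 did. Genes induced by dissociation were lower in macrophages for 9 of 16 and higher for 2 (median -0.36), with Junb at -0.80 ± 0.08 and Btg2 at -0.91 ± 0.08. Their part in the other differences was not tested.

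Markers of other cells moved with the classes. Neutrophil genes summed to 57.0 to 126 CPM in macrophages and 73.0 to 6763 (median 1613) in monocytes, with all 4 tested members lower in macrophages; Camp reached 1304 and Ngp 762 CPM in a monocyte sum, and Ly6g and Ltf were 0 in macrophages. Natural killer genes summed to at most 6.52 CPM in macrophages and 35 to 144 in monocytes. This came mainly from Klrd1, a lectin receptor with 18.4 to 132 CPM in monocytes and 3 UMIs in all macrophages, while the defining markers Ncr1 and Eomes were at most 0.84 CPM in any monocyte sum. B cell genes had 35 to 114 CPM in monocytes, T cell genes at most 18.6 in either class, dendritic genes 45.0 to 223 in monocytes and plasmacytoid genes, mostly Bst2, 577 to 1592 in macrophages and 913 to 1580 in monocytes. Patrolling monocyte genes, mostly Nr4a1 and Itgal, had 185 to 391 CPM in macrophages and 277 to 713 in monocytes. Ace and Treml4 of that list had medians of 0 and 0.70 CPM in macrophages and 17.0 and 19.9 in monocytes.

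In macrophages, microglial genes outside the exclusions summed to 63.0 to 192 CPM against 48.2 to 84.4 in monocytes, in macrophages mostly from Olfml3, while Sall1 and Slc2a5 had medians of at most 2.11 CPM in either class. Border macrophage genes summed to 147 to 1080 CPM against 134 to 189, with Pf4 and Mrc1 higher in macrophages. Clec12a of the same list was lower in macrophages (log2 fold change -0.35, median 98.0 CPM against 137) and made up most of the monocyte sums. Siglec1 did not pass, with 72 UMIs in macrophages and 146 in monocytes. The less abundant Folr2, Cd163, Cbr2 and Lyve1 were more frequent in macrophages. Folr2 had 50 UMIs against 0 in monocytes, Cd163 42 against 8, Cbr2 34 against 15 and Lyve1 32 against 2. Their median levels in macrophages were at most 3.48 CPM. Pool 1, hashtag 5 had the highest macrophage levels of Pf4 (591 CPM), Mrc1 (276), Folr2 (70.9), Cbr2 (31.5) and Cd163 (15.8). Without that sample the log2 fold change was 5.41 for Pf4 and 2.52 for Mrc1. When cells with any UMI of Lyve1, Cd163, Cbr2, Ace, Treml4, T cell, B cell or natural killer markers, or with 3 or more UMIs of S100a8 and S100a9, were left out, 6 samples remained, with 1488 higher and 1596 lower genes, and all 22 interferon genes were still lower. Pool 1, hashtag 5 and pool 3, hashtag 5 were not among the 6, so removal of marked cells and loss of these samples cannot be told apart. In the 6 samples Pf4 was higher by 5.05 and Mrc1 by 2.11 on the log2 scale, and the complement list had 6 higher and 2 lower genes with a median of 0.61.

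The antibody tags gave a second measurement of the same cells that the gates had not used. Tag levels are centred log ratios: 1 was added to each tag count, natural logs were taken, and the cell's mean over its 10 tags common to all pools was subtracted. Then the class means within a sample were compared by an exact sign-permutation test over 8 pairs, two-sided, whose smallest p is 0.0078. Ly6C and Gr-1 antibodies bind the product of the gate gene Ly6c2 and carry no test; Ly6C was lower in macrophages in 8 of 8 samples (-1.04 ± 0.26, SD) and Gr-1 in 6 of 8 (-0.46 ± 0.43). Of the 8 tags tested, 5 passed after adjustment over the 8.

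The PD-L1 tag, which marks a ligand of the T cell checkpoint PD-1, was higher in macrophages in 8 of 8 samples. The difference was 0.93, 0.91 and 1.01 in pool 1, 0.52, 0.66 and 0.81 in pool 2 and 1.08 and 0.78 in pool 3, with a mean of 0.84 ± 0.18 (SD, exact permutation test, adjusted p = 0.016). Its RNA, Cd274, went the other way in all 8 samples, with 87.4 to 241 CPM in macrophages and 137 to 371 in monocytes, and a log2 fold change of -0.53 ± 0.09 (adjusted p = 3.6e-05). In each pool the Cd274 difference was negative, at -0.51, -0.45 and -0.74. Median PD-L1 counts per cell were 417 to 695 in macrophages and 165 to 412 in monocytes, so the difference was also present before any scaling.

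The MHCII tag was higher in 8 of 8 samples as well, by 0.41 to 1.16 (mean 0.76 ± 0.30, exact permutation test, adjusted p = 0.016), with median counts of 717 to 2228 per cell against 460 to 1030. H2-Ab1 and H2-Aa RNA, given above, did not pass, and both were lower past the test with gates on Gpnmb and Plac8. In other settings H2-Ab1 was higher past the test: with gates on Ms4a7 and Ly6c2, with library size scaling and without replicate 2. The Ccr2 tag, measured in pools 2 and 3 only, differed by 0.36 ± 0.24 and was higher in macrophages in 5 of 5 samples, where the smallest two-sided exact p is 0.0625, while Ccr2 RNA was lower in 8 of 8. On raw counts the Ccr2 tag was higher in 4 of 5 samples.

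The CD52 tag, a small anchored glycoprotein of leukocytes, was lower in macrophages in 8 of 8 samples, with differences from -1.05 to -0.62 (mean -0.79 ± 0.15, exact permutation test, adjusted p = 0.016). Its median counts were low, 8 to 27 per cell in macrophages and 20.5 to 86 in monocytes. Cd52 RNA was lower too (2094 against 4016 CPM, log2 fold change -0.94 ± 0.07, adjusted p = 3.7e-10). CD11b was higher in 7 of 8 samples (0.28 ± 0.15, exact permutation test, adjusted p = 0.025) with no difference past the test in Itgam RNA (0.05 ± 0.10, adjusted p = 0.71; with gates on Gpnmb and Plac8 0.34, adjusted p = 0.00958). The tag missed the threshold on raw counts (adjusted p = 0.0625) and when centred on 8 tags without Ly6C and Gr-1 (0.09, adjusted p = 0.16). The Tmem119 tag was higher in 8 of 8 samples (0.37 ± 0.15), but from 10 to 33 counts per cell in macrophages and 8 to 22 in monocytes, and Tmem119 RNA was part of the exclusion. Centred on 8 tags without Ly6C and Gr-1, the Tmem119 difference was 0.18. On that scale and on raw counts it was higher in 7 of 8 samples and still passed. CD45 (0.13 ± 0.16), CD49d (-0.02 ± 0.09) and CD74 (-0.06 ± 0.21) did not pass, and their direction or outcome changed with the scale, while Ptprc and Itga4 RNA, which encode CD45 and CD49d, fell by 0.89 ± 0.09 and 1.03 ± 0.10 on the log2 scale. Monocytes carried more tag counts in all (median 11534 per cell against 8104), and the signs for PD-L1, MHCII and CD52 were the same in 8 of 8 samples on each of the 4 scales tried.

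**Figure D4:**
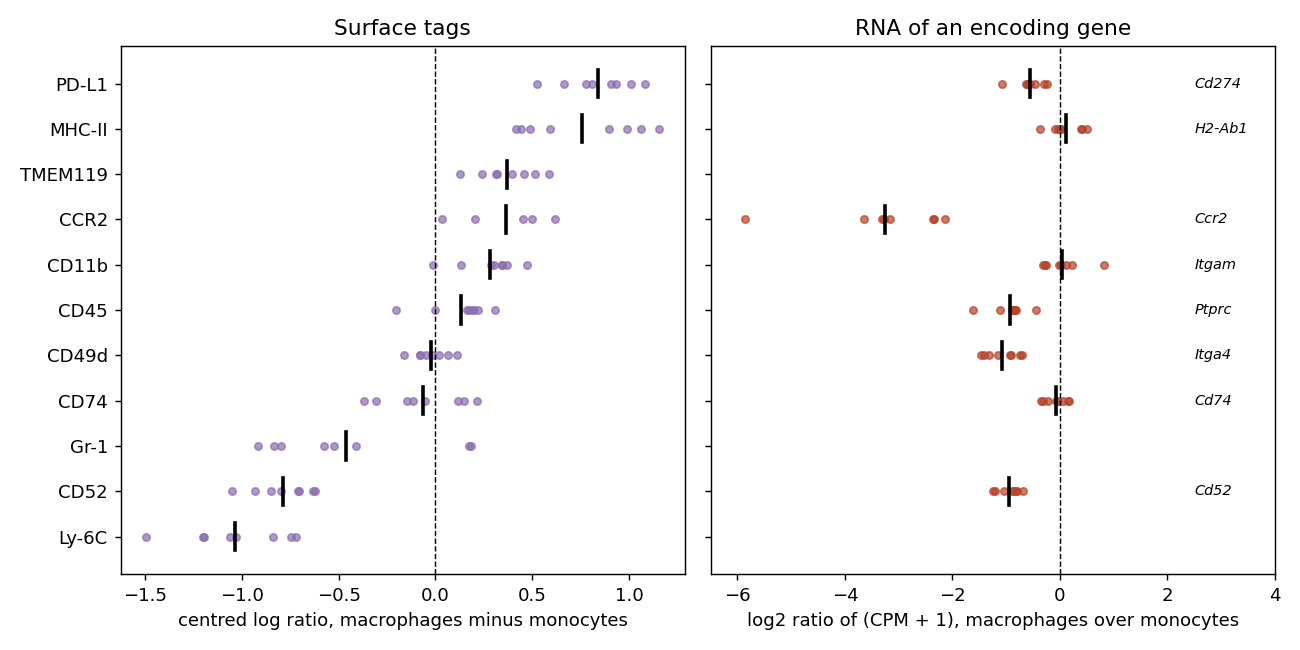
Left, difference of each surface tag between macrophages and monocytes in each hashed sample (centred log ratio, natural log; 8 samples, 5 for Ccr2). Right, log2 ratio of CPM plus 1 of a gene that encodes the target, where one is shown; black bars are means. PD-L1 points lie right of 0 and Cd274 points left of it, whereas CD52 and Cd52 both lie left of 0.

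Double positive cells, 1683 of them in the 8 samples, were not in the test, and they were set beside both classes for the 23 genes of the plot of leading genes. Their median level lay between those of macrophages and monocytes for 22 genes. The exception was Fabp5, with 2030 CPM in double positive cells, 1678 in macrophages and 294 in monocytes (CPM of plain totals). On the log2 scale, double positive cells were nearer to macrophages for 11 of the 12 higher genes and for 6 of the 11 lower genes. Syngr1 stood at 129 CPM against 143 in macrophages and 7.78 in monocytes, and S100a4 at 94.4 against 13.9 and 918. The gates fix part of this order, since the double positive cells were selected on the genes that set the classes.

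**Figure D5:**
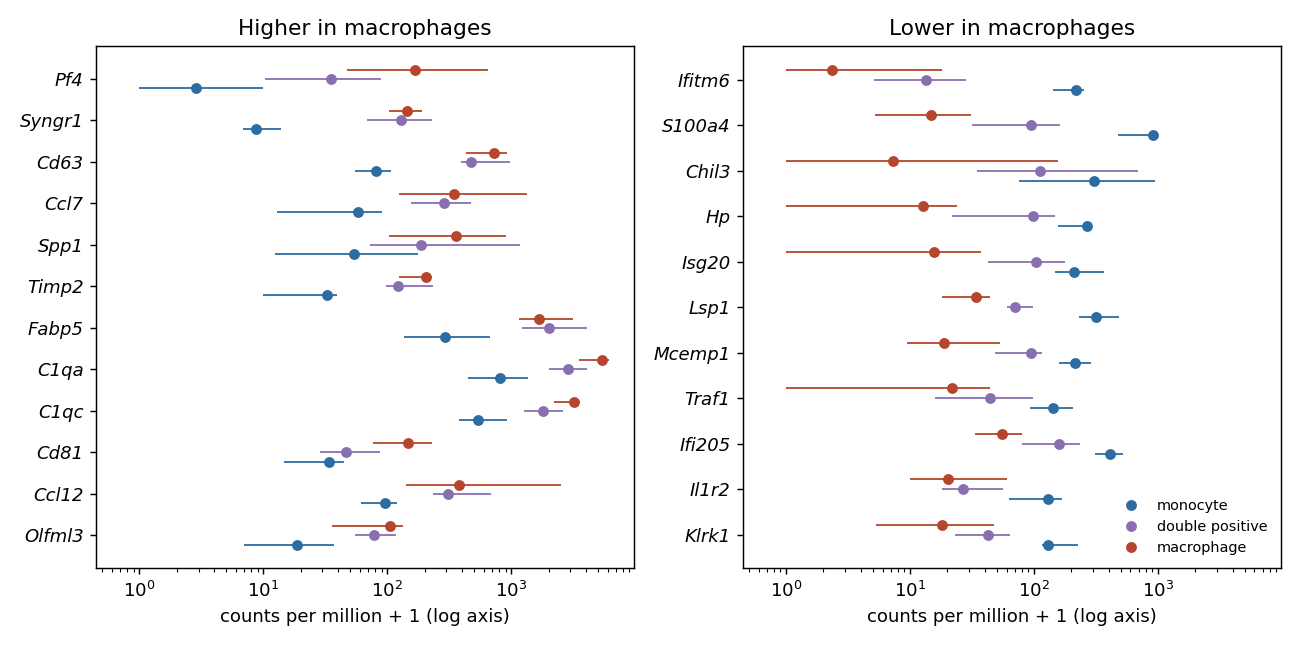
Level (CPM plus 1, log axis) of the same 23 genes in monocytes, double positive cells and macrophages; points are medians and lines the range over 8 samples. Double positive points fall between the others except for Fabp5, at 2030 CPM.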

How the data were processed

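The deposited matrices held raw UMI counts per gene or tag and cell barcode, which the authors had not normalized. Per the submitters' processing notes, the build was mm10 and the tools included bcl2fastq 2.20.0.422, Seurat 3 and Cell Ranger in versions 3.0.1 and 4.0.0. Cells needed at least 500 RNA UMIs, under 10% mitochondrial UMIs and 1 of hashtags 1 to 6 with at least 80% of hashtag UMIs, which removes doublets of differently hashed samples only; no doublet caller was run. Counts of the 30406 genes listed in all 3 pools were summed per hashed sample and class where both classes had at least 20 cells. Class sums held 115961 to 2435150 UMIs for macrophages and 336284 to 3547703 for monocytes, and this sets their precision.

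The sums were tested with edgeR 4.0.16 (TMM scaling, filterByExpr, quasi-likelihood, hashed sample as a block because both classes come from the same sample, Benjamini-Hochberg over all genes tested, threshold 0.05). The SE is the log2 fold change divided by the root of the F statistic. The script was tested on simulated data. Tag differences were tested by exact sign permutation. Alternatives covered DESeq2 1.42.0, scaling, filters, gates, hashtag purity, depth matching, marker exclusion and leaving out samples or pools.

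The members and gene lists were chosen with earlier results of these data known, so the lists are described by counts and medians and carry no test of their own. Genes named are the 12 with the largest rise and the 12 with the largest fall among genes past the test with a mean of at least 50 CPM and 1 direction in every sample, the 3 members of each list with the smallest p, those that encode tag targets, and list members given with their values; these last were picked after their values were seen. A few genes are not reported here: they stay in the fit and in the counts over all genes but are left out of lists and plots, so 11 of the 12 with the largest fall are shown. RefSeq promoters (GRCm38.p6) were matched by symbol for 68 of 83 named genes.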

Additional observations from a re-analysis of the deposited data

Results flagged for a closer look

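Log2 ratios of CPM plus 1 within the 8 hashed samples were searched for 1 sample far from the others, for 83 named genes and 11 tags, and 17 of 94 items had one. Chance alone gives about 1 in 20 where all samples have the same spread, which sums of few and of many cells need not have. None of the 17 was a tag. Pool 3, hashtag 6 (25 macrophages) stood apart for 7 genes. There the ratio was 1.21 for C1qa (others 2.36 to 2.95), 1.12 for C1qc (2.02 to 2.76), 0.63 for Cd81 (1.96 to 2.69), 0.96 for Apoe (1.66 to 2.28), -0.29 for Fcrls (1.82 to 2.85), -1.18 for Pdgfa (1.49 to 2.87) and -7.18 for Isg20 (-4.17 to -3.13).

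Pool 3, hashtag 5 (21 macrophages) stood apart for Mcm3 at 5.07 (others 0.03 to 1.75), Mcm6 at 4.41 (-0.47 to 1.74), Atp5g1 at 1.16 (0.41 to 0.62), Itgam at 0.82 (-0.30 to 0.23) and Traf1 at -7.70 (-3.95 to -2.10). Pool 1, hashtag 5 (21 macrophages) stood apart for Spp1 at 4.47 (2.09 to 3.13), Hp at -8.31 (-5.45 to -3.52) and Ccr2 at -5.86 (-3.64 to -2.14). In pool 2, hashtag 6 Ciita had -1.84 (-1.13 to -0.63), and in pool 2, hashtag 5 Ndufa4 had 0.024 (-1.49 to -0.92). Some of these ratios set a level of 0 against the added 1. Macrophages had 0 CPM of Hp in pool 1, hashtag 5, of Traf1 in pool 3, hashtag 5 and of Isg20 in pool 3, hashtag 6. Monocytes had 0 CPM of Mcm3 and Mcm6 in pool 3, hashtag 5. The samples with 21 to 25 macrophages hold 15 of the 17 values. Whether the number of cells sets the 17 values was not tested.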

How the results depend on the processing

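The counts of 1664 higher and 1719 lower genes stayed within 1.5 times of these values with DESeq2 (1403 and 1575), library size scaling (1934 and 1516), no filter (1630 and 2100), no replicate block (1370 and 1395, the fit that ignores the pairing of classes within a sample) and most gates. Fewer genes passed in pool 1 alone (955 higher), pool 2 alone (1009 higher) and pool 3 alone (325 higher, 445 lower), with stricter gates, which leave 4 samples (1084 higher), and in cells matched on UMIs (746 higher, 934 lower). Leaving out pools or samples in turn gave 1014 to 1670 higher and 1166 to 1782 lower genes. With double positive cells among the macrophages, an alternative chosen after seeing the data, 2081 and 2183 genes passed.

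Of the tags, 5 passed, 8 on counts per 1000 tags and 4 without the pairing. Leaving out a pool or using stricter gates left 4 to 6 pairs, and by the exact permutation test 0 tags passed, with adjusted p of 0.0625 or more; at an unadjusted p under 0.05 there were 4 without replicate 3 and 0 in the others. Signs reversed for values near 0. Itgam changed to -0.0034 without a filter, -0.027 without replicate 3 (leaving out each pool gave -0.027 to 0.19), -0.091 in pool 2, -0.038 without pool 3, hashtag 5, -0.16 with gates on Ms4a7 and Ly6c2, and -0.030 with at least 10 cells, and was higher past the test with gates on Gpnmb and Plac8 (0.34, adjusted p = 0.00958) and with any monocyte sum (0.16, adjusted p = 0.015). H2-Ab1 changed to -0.16 in pool 2, -0.57 with gates on Gpnmb and Plac8, -0.12 in matched cells, -0.0050 without cells with other markers, -0.015 with at least 10 cells and -0.0087 with any monocyte sum. It was higher past the test with library size scaling (0.19, adjusted p = 0.0431), without replicate 2 (0.30, adjusted p = 0.0169) and with gates on Ms4a7 and Ly6c2. H2-Aa was 0.024 in pool 1 and 0.15 with gates on Ms4a7 and Ly6c2. H2-Aa was lower past the test without a filter (adjusted p = 0.0341), without replicate 1 (0.0037), in pool 2 (0.00288), in matched cells (0.0136), without cells with other markers (0.0404), with gates on Gpnmb and Plac8 (1.37e-06) and without pool 1, hashtag 4 (0.0312) or 6 (0.0241). Cd74 was 0.0085 with library size scaling and 0.14 with gates on Ms4a7 and Ly6c2. Ccl12, higher by 2.24 in the report, was -0.12 (adjusted p = 0.58) with gates on Gpnmb and Plac8. CD49d was 0.54 and CD74 0.32 on counts per 1000 tags, CD49d 0.014 without replicate 2 (from -0.076 over the pools left out), and CD45 -0.057 when centred on 8 tags. The cause was not tested.

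In 3 samples the macrophage sums rest on 21 to 25 cells.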
